A study of Mus musculus with 80 samples.

Results

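The 8 genes described here are 6 AMPK subunit genes (Prkaa1, Prkaa2, Prkab1, Prkab2, Prkag1 and Prkag2) and the genes of 2 kinases upstream of AMPK (Stk11 and Camkk2), chosen by name out of the 23337 genes of the deposited table. The table covers 80 RNA-seq libraries in 20 groups, all labelled as AgRP neurons of the arcuate hypothalamus of mice. Cells sorted for the fluorescent reporter of NPY::hrGFP mice gave 33 libraries. Of these, 7 at ZT2 and 8 at ZT14 followed a fast of 24 hours, 5 and 4 followed such a fast and 1 hour of refeeding, and 6 and 3 came from mice fed ad libitum, where ZT counts hours after lights on. RiboTag immunoprecipitates of AGRP-Cre;RiboTag mice, in which RNA is pulled down with the tagged ribosomes of Cre-expressing cells, gave 17 libraries: 5 at ZT2 and 5 at ZT14 from fasted mice, and 3 and 4 from mice fed ad libitum. A leptin series of 25 libraries held AGRP-Cre;BMAL1fx knockouts, described as lacking the clock gene Bmal1 (Arntl) in AgRP neurons through Cre driven by Agrp, and WT;BMAL1fx controls, which carry the floxed gene without Cre. Each genotype received leptin or PBS and was collected at ZT2 and ZT14, with 3 libraries in each group and 4 in the control PBS group at ZT2. At ZT5, a further 3 knockout and 2 control libraries have no treatment in their labels. The collection protocol in the labels covers GFP sorting and RiboTag only. How cells of the leptin and ZT5 series were collected is not given in the sources used here.

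AMPK is a kinase complex of a catalytic alpha, a scaffolding beta and a nucleotide-binding gamma subunit, and a rise of AMP or ADP relative to ATP favours its active form. It becomes active when LKB1 (the product of Stk11) or CaMKK2 (the product of Camkk2) phosphorylates the activation loop of the alpha subunit, and it then turns on ATP-producing and turns off ATP-consuming reactions. In AgRP neurons it is known as a sensor of fasting signals that promotes feeding. RNA levels, the only quantity measured here, do not report this phosphorylation.

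On mm10, with positions from GENCODE M21, Prkaa1 lies on chromosome 15 (5143861 to 5181899, plus strand), Prkaa2 on chromosome 4 (105029874 to 105109890, minus), Prkab1 on chromosome 5 (116013586 to 116024508, minus) and Prkab2 on chromosome 3 (97658193 to 97673812, plus). Prkag1 lies on chromosome 15 (98812797 to 98831521, minus), Prkag2 on chromosome 5 (24862744 to 25100642, minus), Stk11 on chromosome 10 (80115803 to 80130682, plus) and Camkk2 on chromosome 5 (122731170 to 122779409, minus). All 8 are protein-coding. A strand setting is not given in the sources used here, and 6 of the genes overlap an annotated gene on the opposite strand: Prkaa1 (Gm15938), Prkab1 (Gm14508), Prkab2 (Gm17651), Prkag1 (B130046B21Rik), Prkag2 (1500035N22Rik, Prkag2os1 and Prkag2os2) and Stk11 (Cbarp). Reads from the stretches that these pairs share cannot be told apart. The stretches run from 232 bases (Stk11 with Cbarp) to 12327 bases (Prkag2 with 1500035N22Rik), exons and introns together.

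The 250 bases before the start of Prkaa1 and of Prkag1 are printed because these genes differed in opposite directions after fasting at ZT2. They are RefSeq sequences of GRCm38.p6, 5′ to 3′ on the gene's own strand, and capitals mark GC boxes (GGGCGG or, on the other strand, CCGCCC). The Prkaa1 window is chr15:5143611-5143860 on the plus strand and the Prkag1 window chr15:98831509-98831758 on the minus strand.
Prkaa1: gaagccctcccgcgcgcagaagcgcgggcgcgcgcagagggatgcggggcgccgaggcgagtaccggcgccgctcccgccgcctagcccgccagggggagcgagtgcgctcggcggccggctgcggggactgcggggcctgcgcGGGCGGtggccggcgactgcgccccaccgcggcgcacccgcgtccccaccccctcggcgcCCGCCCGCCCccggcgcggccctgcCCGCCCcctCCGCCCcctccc
Prkag1: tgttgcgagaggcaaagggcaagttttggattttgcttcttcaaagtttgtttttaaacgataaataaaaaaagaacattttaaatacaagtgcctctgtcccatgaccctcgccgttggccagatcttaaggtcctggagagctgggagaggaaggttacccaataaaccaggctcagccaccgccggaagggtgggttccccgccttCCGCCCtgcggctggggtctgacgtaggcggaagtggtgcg
The Prkaa1 window held 5 GC boxes, 2 of them overlapping, at a GC content of 85.2%, and the Prkag1 window held 1 at 51.6%. Over the 10 windows of the 8 genes (Prkag2 has 3), 7 held a GC box, against 32.7% of 32851 promoter windows of the same length. The E-box CACGTG, which reads the same on both strands, was in 0 of the 10 windows and in 6.02% of all windows.

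All 8 genes were above 0 in 80 of 80 libraries. Values are normalised counts as deposited. Per kilobase of exon, the median over the 80 libraries was 1033 for Prkag1, 207.7 for Prkag2, 190.9 for Prkaa1, 123.1 for Prkab1, 34.26 for Stk11, 30.6 for Prkaa2, 17.18 for Camkk2 and 8.134 for Prkab2. Of each subunit pair, the gene numbered 1 was thus the higher per kilobase. Prkaa2 made up a median of 14.6% of the alpha pair per length (range 5.33 to 37.3%), Prkab2 6.81% of the beta pair (0.484 to 35.5%) and Prkag2 18.2% of the gamma pair (5.41 to 29.9%). Group means of a gene differed most for Prkab2, by 16.0 times between RiboTag ad libitum libraries at ZT2 (166.1 ± 35.85, SD, n = 3) and ZT5 controls (10.35 ± 3.093, n = 2), and least for Prkag1, by 2.1 times. With the 20 groups put in order of their mean, neighbours differed by more than the larger of their SDs in 0 to 2 of 19 steps for each gene. The orders therefore resolve few groups: the steps that did were above ZT5 controls for Prkaa1, Prkab2 and Camkk2, below both ZT5 groups for Prkag2 and between them, between RiboTag ad libitum and RiboTag fasted groups for Stk11, and between the 4 RiboTag groups and all others for Camkk2. In fasted mice the medians in RiboTag and in sorted cells were 195.9 and 112.3 for Camkk2, 84.4 and 18.67 for Prkab2, and 326.5 and 65.08 for Stk11. In mice fed ad libitum they were 219.6 and 71.82 for Camkk2, 147.2 and 43.56 for Prkab2, and 125.5 and 112.0 for Stk11. These are descriptions, since the protocols differ.

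Libraries held 5.92 to 33.98 M recovered reads, with a median of 14.27 M. Agrp and Npy, which define these neurons, were above 0 throughout, with Agrp at 32495 to 338142 in sorted cells and at 2910 to 1488869 in RiboTag. Summed markers of astrocytes (10 genes) reached 17079 to 347057 and of oligodendrocytes (8 genes) 11045 to 243996 in RiboTag, against 1825 to 38043 and 751 to 6899 in sorted cells. In these bulk libraries, fewer cells of a type and less RNA per cell cannot be told apart. Column headers give the fasted, refed and ad libitum sorted cells as separate sample sets, so that set and feeding state cannot be told apart, while RiboTag libraries share 1 set. Cebpb, a transcription factor gene, was at 42.54 to 1565 in all 25 fasted libraries and at 433.2 to 629.6 in the 5 ZT5 libraries, which are not labelled as fasted, against 0 to 17.06 in the other 50. Which part of Arntl the deletion removes is not given in the sources used here. Arntl was at 107.8 to 526.3 in leptin-series knockouts and at 223.1 to 1211 in controls, and at 470.2 to 540.5 in ZT5 knockouts against 390.4 and 750.3 in ZT5 controls, so that it did not separate the genotypes. Hsd11b2, picked after its values were seen, did (2092 to 3749 in leptin-series knockouts, 0 to 19.74 in controls), and by it the library labelled ZT5 control 1 (4628) and the library labelled ZT5 knockout 3 (11.24) go against their labels. No label ties replicates to different animals. The p-values therefore cover the spread among libraries alone, and that spread may be technical. Where 2 groups are said below not to overlap in a gene, the share of all genes that do so was not counted. Such statements describe the values only.

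The first question was whether a fast alters the RNA of these genes in AgRP neurons. In sorted cells at ZT2, fasted libraries had less Prkaa1, the more abundant catalytic subunit gene, by a log2 difference of -0.67, and more Prkab1 and Prkag1, the more abundant beta and gamma subunit genes, by 0.71 and 0.69. These were 3 of the 8 genes (37.5%) past an adjusted p of 0.05 (limma on log2(value + 1), Benjamini-Hochberg over 14931 genes), the same share as the 37.5% of all genes tested that passed (18.3% higher, 19.2% lower). The median difference was -0.2 over the 8 genes and -0.02 over all genes.

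Prkaa1 had a lowest, median and highest value of 388.3, 676.2 and 858.7 in the 7 fasted libraries, against 749.7, 923.7 and 1170 in the 6 ad libitum libraries. In 6 of 7 fasted libraries it lay below every ad libitum library, and the groups overlapped through 1 fasted library. Its means were 600.9 ± 174.8 in fasted and 934.8 ± 173.6 in ad libitum cells (SD), a difference of -0.67 ± 0.2 (standard error, adjusted p = 0.00792). Prkaa2, which encodes the other catalytic subunit, ranged from 106.8 to 323.6 after fasting (mean 234.0 ± 84.59) and from 240.2 to 458.7 with food (333.5 ± 82.03). Its difference of -0.57 (95% interval -1.13 to -0.02) did not pass after adjustment (adjusted p = 0.099).

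Prkab1, whose product holds the alpha and gamma subunits together, had 212.5, 273.8 and 355.3 as lowest, median and highest in fasted cells and 120.1, 157.7 and 257.1 in ad libitum cells. All but 3 of the fasted libraries lay above every ad libitum library. It rose by 0.71 ± 0.216 (279.9 ± 54.06 in fasted against 173.9 ± 50.43 in ad libitum cells, adjusted p = 0.00945). Prkab2, the other beta subunit gene and the lowest of the set, averaged 31.36 ± 28.68 in fasted and 57.48 ± 25.66 in ad libitum cells. It lay below every ad libitum library in 5 of 7 fasted ones, yet its difference of -1.18 (-2.26 to -0.1) did not pass (adjusted p = 0.0782), and it did once fasted replicate 3, with 88.51, was left out (-1.5, adjusted p = 0.023).

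Prkag1, whose product binds AMP, ADP and ATP, had 1509, 1780 and 2492 as lowest, median and highest in fasted cells and 935.3, 1212 and 1559 in ad libitum cells. In 6 of 7 fasted libraries it lay above every ad libitum library. Its rise of 0.69 ± 0.157 (1950 ± 363.5 against 1210 ± 223.5) had the lowest adjusted p of the 8 genes, 0.000762. Prkag2, the other gamma subunit gene, averaged 852.5 ± 151.8 in fasted and 752.6 ± 56.96 in ad libitum cells, with a difference of 0.16 (-0.18 to 0.5, adjusted p = 0.466). Of the upstream kinase genes, Camkk2 differed by 0.32 (-0.32 to 0.97, adjusted p = 0.442), with overlapping groups. Stk11 differed by -0.62 (-1.48 to 0.25, adjusted p = 0.263). It lay below every ad libitum library in 5 of 7 fasted ones, while fasted replicates 3 and 6, at 173.7 and 170.5, overlapped the ad libitum range of 71.89 to 235.8.

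Each of the 3 calls at ZT2 was made by edgeR's quasi-likelihood test too and held without any single library, but none held once differences were corrected for the GC content and exon length of the genes. The corrected difference was -0.28 for Prkaa1 (adjusted p = 0.251), 0.25 for Prkab1 (0.423) and 0.31 for Prkag1 (0.106), while Stk11 then passed (-1.17, adjusted p = 0.0228). Prkaa1 has a GC content of 40.1% over its exons, Prkab1 55%, Prkag1 52.8% and Stk11 59.5%. Summed microglial markers (9 genes) were at 82.45 to 1355 in fasted and at 7.467 to 73.96 in ad libitum cells, with none of the 9 at 0 throughout, and summed astrocyte markers (10 genes) at 2957 to 38043 and 3336 to 6085. Over both times, summed markers of POMC neurons (6 genes) were at 2062 to 45102 in fasted and 2227 to 3793 in ad libitum cells, of tanycytes and ependyma (6 genes) at 56.76 to 12165 and 30.33 to 469.2, and of endothelium (7 genes) at 38.26 to 585.2 and 178.0 to 509.3. Rn45s, annotated as the precursor of ribosomal RNA, was at 1725 to 15467 in fasted sorted cells over both times, against 122469 to 652629 in refed and 92289 to 715369 in ad libitum cells. Alyref, the gene of an mRNA export factor, was at 549.0 to 2363 in fasted, 23.51 to 81.78 in refed and 12.32 to 80.52 in ad libitum cells. Neither gene overlapped between fasted cells and the other sorted cells, and the 5 ZT5 libraries, with Rn45s at 1577 to 4007 and Alyref at 1273 to 2173, overlapped the fasted ones. The part of these markers and of Rn45s and Alyref in the result was not tested.

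ZT5 controls, whose Cebpb lay within the range of fasted cells, differed from leptin-series PBS controls at ZT2 by -0.74 for Prkaa1, -0.55 for Prkab1 and -0.04 for Prkag1 (log2 differences, with no test, since these are 2 series). The library labelled ZT5 control 1 goes against its label, and with ZT5 control 2 alone the differences were -0.85, -1.18 and -0.07 in the same order.

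**Figure D1:**
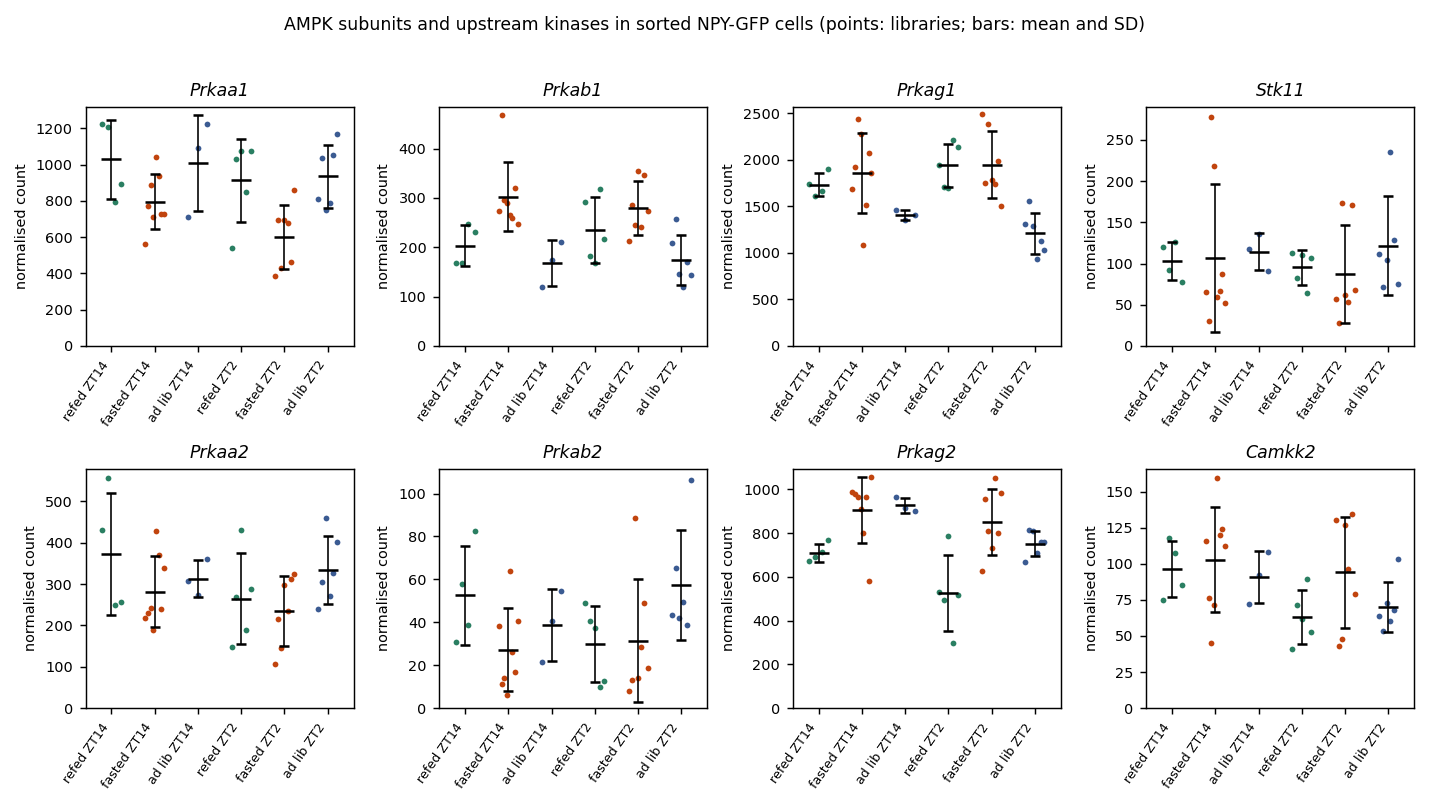
Normalised counts (y axis) of the 8 genes in sorted NPY-GFP cells by feeding state and time (x axis). Points are libraries and bars the mean and SD; in 6 of 7 fasted ZT2 libraries Prkag1 lies above, and Prkaa1 below, all 6 ad libitum ZT2 libraries.

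At ZT14, 1 of the 8 genes (12.5%) passed in the same comparison, against 18.5% of all genes tested (9.66% higher, 8.81% lower). Prkab1 rose again, and the intervals of the other 7 genes held 0. In fasted cells Prkab1 had 248.0, 281.4 and 467.3 as lowest, median and highest over 8 libraries, against 119.7, 174.9 and 211.4 in the 3 ad libitum libraries. The groups did not overlap, with 8 of 8 fasted libraries above all others (302.4 ± 70.4 against 168.7 ± 46.15, 0.85 ± 0.263, adjusted p = 0.0216). Prkag1 lay above every ad libitum library in 7 of 8 fasted ones, at 1858 ± 433.1 against 1405 ± 53.29, with a difference of 0.36 (-0.02 to 0.75, adjusted p = 0.189). Prkaa1 averaged 795.9 ± 152.0 in fasted and 1009 ± 265.8 in ad libitum cells (-0.33, -0.82 to 0.17, adjusted p = 0.37). Prkaa2 (-0.2), Prkab2 (-0.72), Prkag2 (-0.05), Stk11 (-0.44) and Camkk2 (0.11) had intervals that reached both sides of 0 and adjusted p of at least 0.468.

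The call of Prkab1 at ZT14 was lost without ad libitum replicate 1 (0.62, adjusted p = 0.181) or replicate 2 (0.89, adjusted p = 0.0678), and with the GC and length correction (0.48, adjusted p = 0.233). Whether fasting acted differently at the 2 times was tested directly as the difference of the fasting differences, ZT14 minus ZT2. It passed for 0 of the 8 genes and for 0 of all genes in limma (647 genes, and 0 of the 8, had an unadjusted p under 0.05), and edgeR called 0 of the 8 as well. For Prkab1 it was 0.14 (-0.55 to 0.83), for Prkaa1 0.34 (-0.3 to 0.98) and for Prkag1 -0.32 (-0.83 to 0.18).

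The next comparison asked what 1 hour of food after the fast does. At ZT2, refed cells had more Prkaa1 and less Prkag2 than fasted cells, which made 2 of the 8 genes (25%), against 21.8% of all genes tested (10.8% higher, 11.1% lower). Prkag2 had 529.3, 492.8, 786.4, 298.4 and 518.3 in the refed libraries, against 627.4, 812.3 and 1054 as lowest, median and highest in fasted libraries. In 4 of 5 refed libraries it lay below every fasted library, and it fell by 0.74 on the log2 scale (95% interval -1.1 to -0.39, 525.0 ± 173.8 in refed against 852.5 ± 151.8 in fasted cells, adjusted p = 0.00195). Prkaa1 had 539.8, 1031, 1076, 848 and 1075 in the refed libraries, of which 3 lay above all fasted ones. It averaged 913.9 ± 229.1 in refed and 600.9 ± 174.8 in fasted cells (0.61 ± 0.21, adjusted p = 0.0328). The other 6 genes did not pass, and the difference of Prkag1 was 0.01 (-0.33 to 0.34).

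The call of Prkag2 held under every alternative that was run (adjusted p up to 0.0321). That of Prkaa1 was lost in 7 of the 12 fits that left out 1 library (fasted replicates 1, 3 and 6 and refed replicates 2, 3, 4 and 5; highest adjusted p = 0.0865), with only the 2 groups fitted (0.103) and with the GC and length correction (0.45, adjusted p = 0.0918), under which Prkag1 (0.47, adjusted p = 0.0287) and Stk11 (1.15, adjusted p = 0.0473) passed. In refed and fasted cells at ZT2, summed astrocyte markers were at 1825 to 3229 and 2957 to 38043. Markers of tanycytes and ependyma were at 22.78 to 257.5 and 157.9 to 6026, and of POMC neurons at 3453 to 6006 and 2062 to 45102. These sums overlapped between the groups, and their part was not tested. Refed replicate 4, the lowest in Prkag2 (298.4), had the fewest genes above 0 of the sorted libraries (13041). At ZT14, refed over fasted cells gave 0 of 8 calls in limma and in edgeR, against 11.7% of all genes in limma, with 1 of the 8 at an unadjusted p under 0.05, beside 24% of all genes. That gene was Prkab1, which had 167.4, 169, 246.3 and 231 in refed cells against a lowest value of 248.0 in fasted cells, so that the groups did not overlap (-0.56, -1.05 to -0.08, adjusted p = 0.13). Prkab2 averaged 52.57 ± 23.05 in refed and 27.23 ± 19.44 in fasted cells at ZT14 (1.14, -0.04 to 2.33, adjusted p = 0.229).

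Set against ad libitum cells at ZT2, refed cells had more Prkag1 and less Prkag2, again 2 of the 8 genes (25%), where 17.7% of all genes tested passed (9.01% higher, 8.72% lower). Prkag1 had 1946, 1710, 1702, 2208 and 2135 in refed cells, and 5 of 5 lay above every ad libitum library (highest 1559). It averaged 1940 ± 234.4 in refed and 1210 ± 223.5 in ad libitum cells (0.69 ± 0.171, adjusted p = 0.00501), and this call held under every alternative run. Prkag2 averaged 525.0 ± 173.8 in refed and 752.6 ± 56.96 in ad libitum cells (-0.58 ± 0.181, adjusted p = 0.0236), with 4 of 5 refed libraries below all ad libitum ones. This call was lost without refed replicate 4, the library with 298.4 (-0.39, adjusted p = 0.142), in edgeR (-0.5, adjusted p = 0.0764), with only the 2 groups fitted (adjusted p = 0.0783) and with the GC and length correction (-0.44, adjusted p = 0.0982). The median over all genes was -0.14 in this comparison, and -0.1 with TMM scaling. Prkaa1 differed by -0.06 (-0.5 to 0.39) between these groups. In these groups summed microglial markers were at 169.1 to 532.2 in refed and 7.467 to 73.96 in ad libitum cells, with 3 of the 9 (Tmem119, C1qa and Csf1r) at 0 throughout refed cells. Summed endothelial markers were at 60.5 to 105.1 in refed and 178.0 to 509.3 in ad libitum cells, with 3 of the 7 (Flt1, Slco1a4 and Cdh5) at 0 throughout refed cells, and summed astrocyte markers at 1825 to 3229 and 3336 to 6085. None of these sums overlapped between the groups, and their part in the result was not tested. The comparisons at ZT2 share libraries, so that their values are not independent of each other.

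At ZT14, refed against ad libitum cells gave 0 of 8 calls (limma and edgeR; 0 of the 8 at an unadjusted p under 0.05), where 0.375% of all genes passed in limma. Prkag1 had 1745, 1616, 1668 and 1903 in refed cells and 1459, 1352 and 1405 in ad libitum cells, without overlap (0.3, -0.14 to 0.74, adjusted p = 0.992). Prkag2 did not overlap either, with 671, 689.6, 716 and 767.2 in refed cells and 966.1, 915.4 and 902.5 in ad libitum cells (-0.39, -0.85 to 0.08, adjusted p = 0.909). How many of all genes separate groups of this size was not counted. The effects of refeeding over fasting did not differ between ZT14 and ZT2 past the threshold for any of the 8 genes in limma or edgeR (0 at an unadjusted p under 0.05, and 0% of all genes called); for Prkag2 the difference of effects was 0.41 (-0.1 to 0.93).

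**Figure D2:**
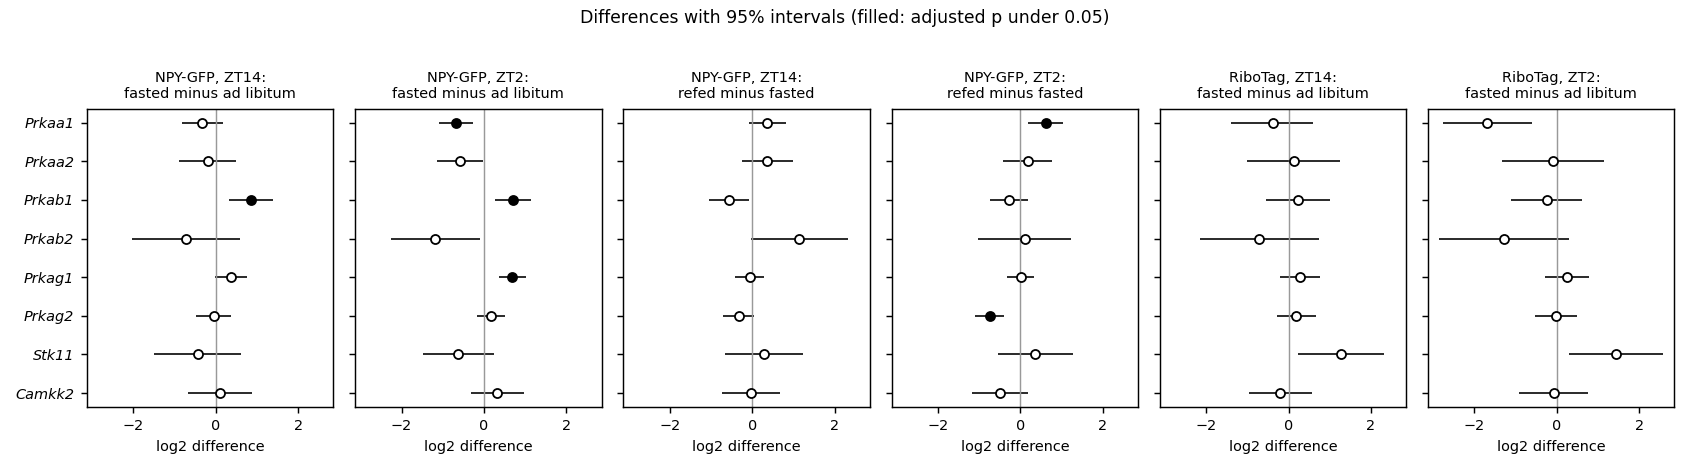
Log2 differences (x axis) of the 8 genes (rows) with 95% intervals in 6 feeding comparisons (panels); filled points have an adjusted p under 0.05. Filled points are Prkab1 at ZT14 and Prkaa1, Prkab1 and Prkag1 at ZT2 for fasting, and Prkaa1 and Prkag2 for refeeding at ZT2, all in sorted cells.

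Time of day was compared as ZT14 over ZT2 within each feeding state. None of the 8 genes passed in sorted cells that were fasted (0.281% of all genes called; 1 of the 8 at an unadjusted p under 0.05, beside 9.87% of all genes), refed (0.0268%; 1 of 8, beside 7.62%) or fed ad libitum (0% called, with 413 genes at an unadjusted p under 0.05; 0 of 8), and edgeR called none of the 8 either. In fasted cells Prkaa1 averaged 795.9 ± 152.0 at ZT14 and 600.9 ± 174.8 at ZT2 (0.44, 0.06 to 0.81, adjusted p = 0.404). In refed cells Prkag2 averaged 710.8 ± 41.88 at ZT14 and 525.0 ± 173.8 at ZT2 (0.5, 0.09 to 0.91, adjusted p = 0.543). In ad libitum cells, Prkag2 was at 966.1, 915.4 and 902.5 at ZT14 and at most 812.7 over 6 libraries at ZT2, so that the times did not overlap, with a difference of 0.3 (-0.13 to 0.74, adjusted p = 1).

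Within a library, the ratio of the 2 genes of a subunit pair removes what scales both alike, apart from the 1 added to each value. The log2 ratio was compared in 39 exact permutation tests, 2-sided, adjusted over the 39 by Benjamini-Hochberg, and 0 passed (lowest adjusted p = 0.0844). The smallest p that a test could give ran from 0.000155 to 0.0286 by group size. In the smaller comparisons even full separation could not pass on its own, so a result there that did not pass decides nothing. Prkag2 over Prkag1 averaged -1.94 ± 0.63 in refed and -0.67 ± 0.24 in ad libitum sorted cells at ZT2 (SD, n = 5 and 6), and 5 of 5 refed libraries lay below all others. The difference of -1.27 had an exact p of 0.00216, the smallest that 5 against 6 libraries can give, and an adjusted p of 0.0844. At ZT14 the same ratio averaged -1.28 ± 0.07 in refed and -0.6 ± 0.04 in ad libitum cells, without overlap (n = 4 and 3, exact p = 0.0286, the smallest possible, adjusted p = 0.205).

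For the beta pair, Prkab2 over Prkab1 averaged -3.52 ± 1.16 in fasted and -1.63 ± 0.68 in ad libitum cells at ZT2 (n = 7 and 6), with 6 of 7 fasted libraries below all others (-1.89, exact p = 0.00816, adjusted p = 0.113). Without fasted replicate 3 the adjusted p was 0.0422. Fasted and ad libitum cells differed by -1.57 at ZT14 (n = 8 and 3, exact p = 0.0545, adjusted p = 0.236). Expressed per length, Prkab2 made up 0.919 to 13.4% of the beta pair in fasted sorted cells (median 2.83%, 15 libraries) and 7.08 to 24.0% in ad libitum ones (median 9.75%, 9 libraries). For the alpha pair in sorted cells, Prkaa2 over Prkaa1 averaged -1.4 ± 0.42 in fasted and -1.5 ± 0.4 in ad libitum cells at ZT2 (n = 7 and 6, a difference of 0.1, exact p = 0.635).

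**Figure D3:**
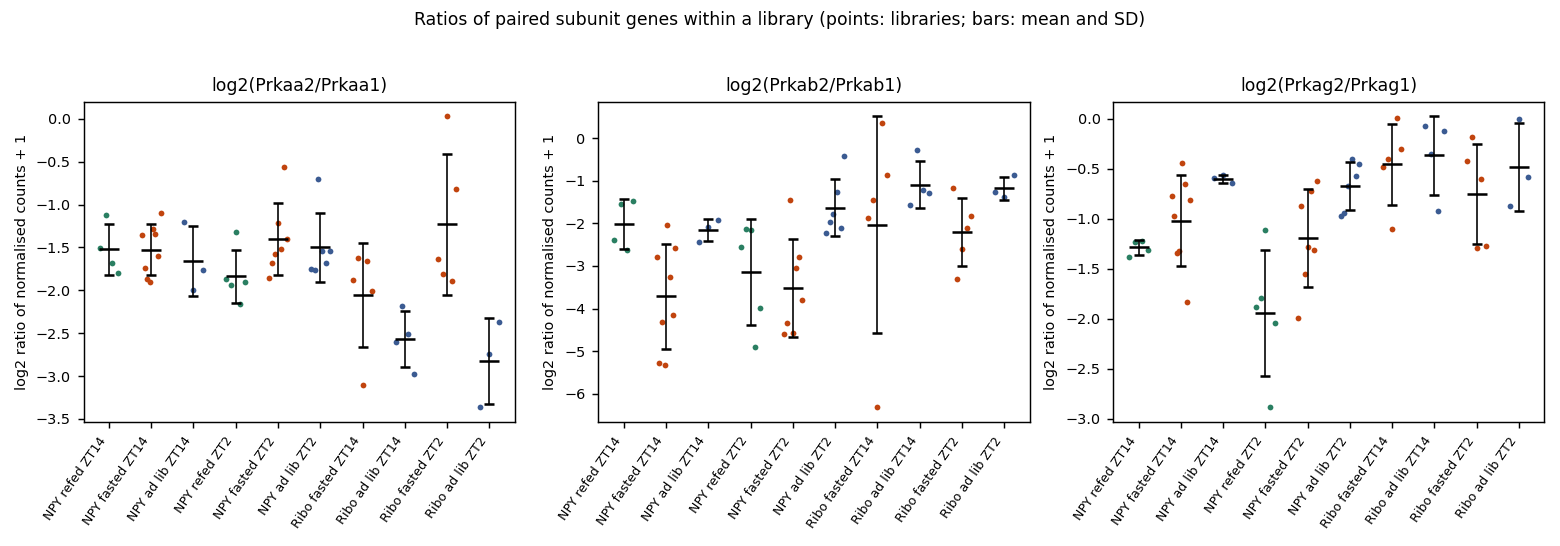
Log2 ratio of the 2 genes of each subunit pair within a library (y axis), by feeding state and time in sorted cells and RiboTag (x axis). Points are libraries and bars the mean and SD; for Prkag2 over Prkag1, refed ZT2 cells average -1.94 and ad libitum ZT2 cells -0.67.

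In RiboTag RNA, fasting gave 0 calls among the 8 genes at ZT2, where 7.89% of all genes tested passed in limma (4.08% higher, 3.81% lower), and 0 at ZT14, where 5.29% did (4.15% higher, 1.14% lower). At an unadjusted p under 0.05 there were 2 of the 8 genes (25%) at ZT2 and 1 (12.5%) at ZT14, beside 27.5% and 19.2% of all genes, and edgeR called 0 at both times. The median over all genes was itself -0.19 at ZT2 and -0.16 at ZT14, and -0.07 and -0.09 with TMM scaling, against which the following differences are to be read. Prkaa1 had 561, 232, 148.1, 1068 and 256.9 in fasted libraries at ZT2, against 1208, 1032 and 1158 in ad libitum libraries. All but 1 of the fasted libraries lay far below the ad libitum ones, and the remaining one lay among them. The difference of -1.69 (-2.77 to -0.6, 453.2 ± 377.5 against 1133 ± 90.39) had an adjusted p of 0.0521, and edgeR did not call it either. Leaving out fasted replicate 4, the library with 1068, brought it to -2.09 (adjusted p = 0.0101), and leaving out fasted replicate 1 to -1.85 (adjusted p = 0.0309). At ZT14 Prkaa1 averaged 874.4 ± 402.6 in fasted and 1057 ± 216.8 in ad libitum libraries (-0.39, -1.39 to 0.6, adjusted p = 0.722), and the difference of the fasting differences, 1.29 (-0.18 to 2.76), did not pass (adjusted p = 1).

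Stk11, the gene of the kinase LKB1, had 217.6, 327.8, 325, 540.1 and 499 in fasted RiboTag libraries at ZT2, against 199.4, 98.37 and 120.8 in ad libitum ones. The groups did not overlap, with means of 382.0 ± 134.1 and 139.5 ± 53.08, and the difference of 1.44 (0.3 to 2.58) did not pass (adjusted p = 0.103). At ZT14 it had 257, 100.6, 324.4, 865.9 and 558 in fasted and 131, 99.15, 213.9 and 126 in ad libitum libraries, with 4 of 5 fasted libraries above all others. That difference was 1.28 (0.23 to 2.32, adjusted p = 0.16), and it passed without fasted replicate 2 (1.71, adjusted p = 0.023). In sorted cells the same contrast gave -0.62 (-1.48 to 0.25) at ZT2 and -0.44 (-1.49 to 0.61) at ZT14 for Stk11; a difference between the 2 kinds of library was not tested. Prkab2 had 104.3, 31.98, 58.1, 69.63 and 99.2 in fasted RiboTag libraries at ZT2 and 207.4, 147.2 and 143.7 in ad libitum ones, also without overlap (-1.28, -2.85 to 0.3, adjusted p = 0.279).

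Prkag1 in RiboTag differed by 0.25 (-0.28 to 0.78) at ZT2 and 0.28 (-0.21 to 0.77) at ZT14, and Prkab1 by -0.25 (-1.1 to 0.6) and 0.23 (-0.55 to 1.01). These intervals hold the differences of 0.69 and 0.36 that sorted cells gave for Prkag1, and for Prkab1 that of 0.85 at ZT14 but not that of 0.71 at ZT2. Prkaa2, Prkag2 and Camkk2 differed by -0.2 to 0.19 at both times, with adjusted p of at least 0.712. The ratio of Prkaa2 to Prkaa1 averaged -1.23 ± 0.82 in fasted and -2.82 ± 0.5 in ad libitum RiboTag libraries at ZT2 (n = 5 and 3), with 5 of 5 fasted ones above all others (1.59, exact p = 0.0357, adjusted p = 0.205). Astrocyte markers summed to 17079 to 347057 in fasted and 21726 to 161424 in ad libitum RiboTag libraries, and oligodendrocyte markers to 11045 to 243996 and 14599 to 178139, with none at 0 throughout a group. At ZT2, summed markers of POMC neurons were at 4405 to 25381 in fasted (median 20921) and 5623 to 7758 in ad libitum RiboTag libraries (median 6178), and of oligodendrocyte precursors (5 genes) at 118.6 to 859.6 and 458.4 to 4353. Microglial markers were at 1264 to 57346 and 1264 to 9476 there, endothelial markers at 3310 to 32368 and 1683 to 20936, and markers of tanycytes and ependyma at 411.8 to 14700 and 253.5 to 1438. Each of these sums overlapped between the groups, and their part was not tested. Over both times, Alyref was at 545.4 to 2756 in fasted and 20.43 to 33.86 in ad libitum RiboTag libraries, without overlap. Rn45s was at 1883 to 148448 and 50805 to 214779, with overlap. The part of these 2 genes was not tested either. ZT14 over ZT2 gave 0 of 8 calls in RiboTag in both feeding states (limma and edgeR; 1 and 0 of 8 at an unadjusted p under 0.05 in fasted and ad libitum libraries, beside 8.94% and 0.596% of all genes; 0% of all genes called), with Prkaa1 at 1.18 (0.24 to 2.11, adjusted p = 0.531) in fasted libraries.

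**Figure D4:**
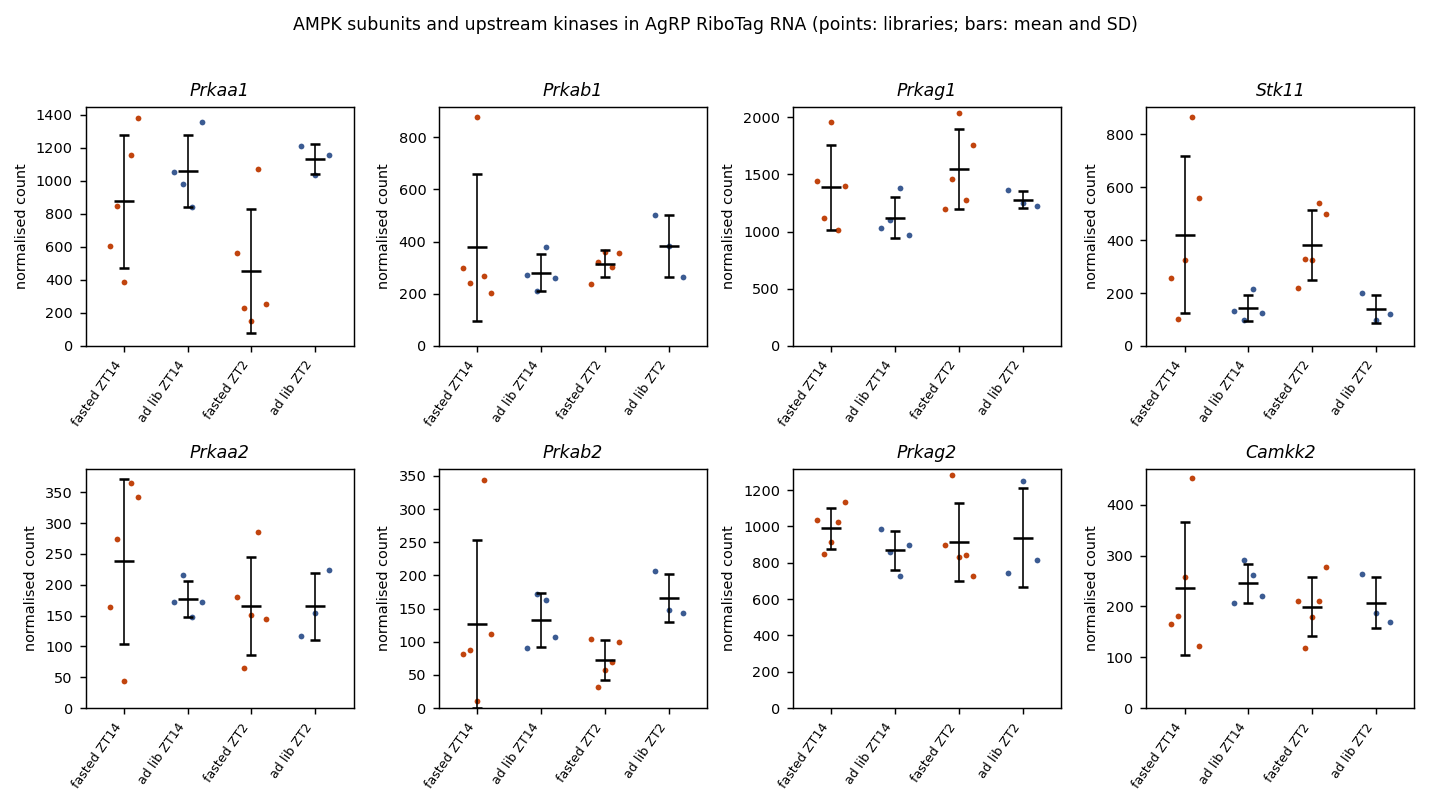
Normalised counts (y axis) of the 8 genes in RiboTag libraries by feeding state and time (x axis), with points for libraries and bars for the mean and SD. Stk11 does not overlap between the 5 fasted and 3 ad libitum libraries at ZT2, and 4 of 5 fasted libraries there have Prkaa1 below all ad libitum ones. Neither difference passed an adjusted p of 0.05 in limma.

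The leptin series asked whether leptin, the adipose hormone that inhibits AgRP neurons, alters these genes and whether Bmal1 is needed for it. In none of the 4 comparisons of leptin with PBS did any of the 8 genes pass, in limma or in edgeR. The shares of all genes called in limma were 0.423% and 0.0861% in knockouts at ZT2 and ZT14, and 0.0215% and 0% in controls. At an unadjusted p under 0.05 there were 3 and 1 of the 8 in knockouts, beside 8.66% and 5.25% of all genes, and 0 and 0 in controls, beside 2.14% and 2.75%. The 3 at ZT2 were Prkab2, Prkag1 and Prkag2.

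Prkab2 in knockouts at ZT2 had 33.5, 21.9 and 33.39 after leptin and 51.36, 69.1 and 49.1 after PBS. The groups did not overlap, and the difference of -0.92 (-1.8 to -0.04) had an adjusted p of 0.55. In knockouts at ZT14 it had 34.7, 16 and 27.67 after leptin and 56.86, 39.4 and 59 after PBS, again without overlap (-1.0, -1.89 to -0.12, adjusted p = 0.883). In controls the leptin difference of Prkab2 was -0.09 (-0.92 to 0.73) at ZT2 and 0.56 (-0.32 to 1.45) at ZT14, and whether the genotypes differed in it was not tested. Prkag1 averaged 1671 ± 538.0 after leptin and 2352 ± 391.1 after PBS in knockouts at ZT2 (-0.53, -1.01 to -0.04, adjusted p = 0.516). Prkag2 had 951.9 ± 178.1 after leptin and 667.4 ± 97.48 after PBS in the same 2 groups (0.5, 0.04 to 0.97, adjusted p = 0.517), without overlap. For none of the separations by leptin was the share of all genes that separate likewise counted. In controls at ZT2, all 8 leptin differences lay between -0.21 and 0.28, and in controls at ZT14 Stk11 did not overlap between leptin (107.5 ± 22.61) and PBS (68.5 ± 17.58; 0.65, -0.11 to 1.42, adjusted p = 1).

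The knockout genotype likewise gave 0 of 8 calls in each of 4 comparisons, in limma and in edgeR. The shares of all genes called in limma were 0.0215% and 0.00717% after PBS at ZT2 and ZT14, and 0.00717% and 0.0215% after leptin. Unadjusted p fell under 0.05 for 1 of the 8 genes after PBS at ZT2 (5.39% of all genes), 1 after PBS at ZT14 (7.6%), 0 after leptin at ZT2 (1.95%) and 1 after leptin at ZT14 (4.72%). After PBS at ZT2, Prkab1 had 282, 441 and 382.2 in knockouts and 182.6, 218, 247.5 and 214 in controls. The groups did not overlap (0.75, 0.07 to 1.44, adjusted p = 0.857). The share of all genes without overlap was not counted, in this or the other comparisons of genotype. After PBS at ZT14, Prkab2 had 56.86, 39.4 and 59 in knockouts and 35.9, 20.4 and 21.94 in controls, without overlap (0.99, 0.1 to 1.87, adjusted p = 0.601). After leptin at ZT14, Prkaa2 averaged 184.0 ± 21.06 in knockouts and 285.4 ± 66.2 in controls, also without overlap (-0.61, -1.2 to -0.03, adjusted p = 1). Time of day, ZT14 over ZT2 after PBS, gave 0 of 8 calls in knockouts (0% of all genes called, 692 at an unadjusted p under 0.05) and in controls (0.00717%), with 0 of the 8 at an unadjusted p under 0.05 in either and none called by edgeR.

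At ZT5 the knockouts and controls gave 0 of 8 calls and 0% of all genes in limma (1157 genes and 0 of the 8 at an unadjusted p under 0.05), and edgeR called 0 of the 8. Prkab2, with 29.43, 37 and 21.6 in knockouts and 12.54 and 8.161 in controls, gave the largest difference (1.41, -0.75 to 3.58, adjusted p = 0.687). Prkab1 had 246, 360.5 and 268.0 in knockouts and 228.3 and 93.86 in controls, without overlap (0.97, -0.03 to 1.97, adjusted p = 0.574). Prkaa1 (-0.22), Prkag2 (-0.31) and Stk11 (-0.81) were lower in all 3 knockouts than in both controls, with adjusted p of at least 0.664. The share of all genes that separate 3 from 2 libraries was not counted, so these separations describe the values only. Without the 2 libraries whose Hsd11b2 goes against their label, chosen after the data were seen, 0 of the 8 passed as well, and Prkab1 differed by 1.66. Set beside leptin-series PBS controls at ZT2, the ZT5 controls had Prkaa1 at 681.4 and 587.6 against 970.9 to 1109, and Prkaa2 at 155.8 and 68.01 against 228.3 to 322.2. They had Prkab2 at 12.54 and 8.161 against 31.79 to 49.23, and Stk11 at 103.9 and 161.9 against 51.67 to 88.2. They had Prkag2 at 1282 and 1541 against 588.6 to 943.5, and Camkk2 at 37.61 and 39.45 against 73.84 to 88.92. Prkab1 and Prkag1 overlapped between the 2 sets. Outside the 8 genes, Cebpb, Alyref and Rn45s did not overlap either (log2 differences of 6.4, 4.94 and -6.79), while Agrp, Npy, Arntl and Hsd11b2 overlapped. The share of all genes without overlap between the sets was not counted. These values are given without a test because series, time and treatment all differ between the sets, and by its Hsd11b2 ZT5 control 1, the first value of each pair, goes against its label.

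**Figure D5:**
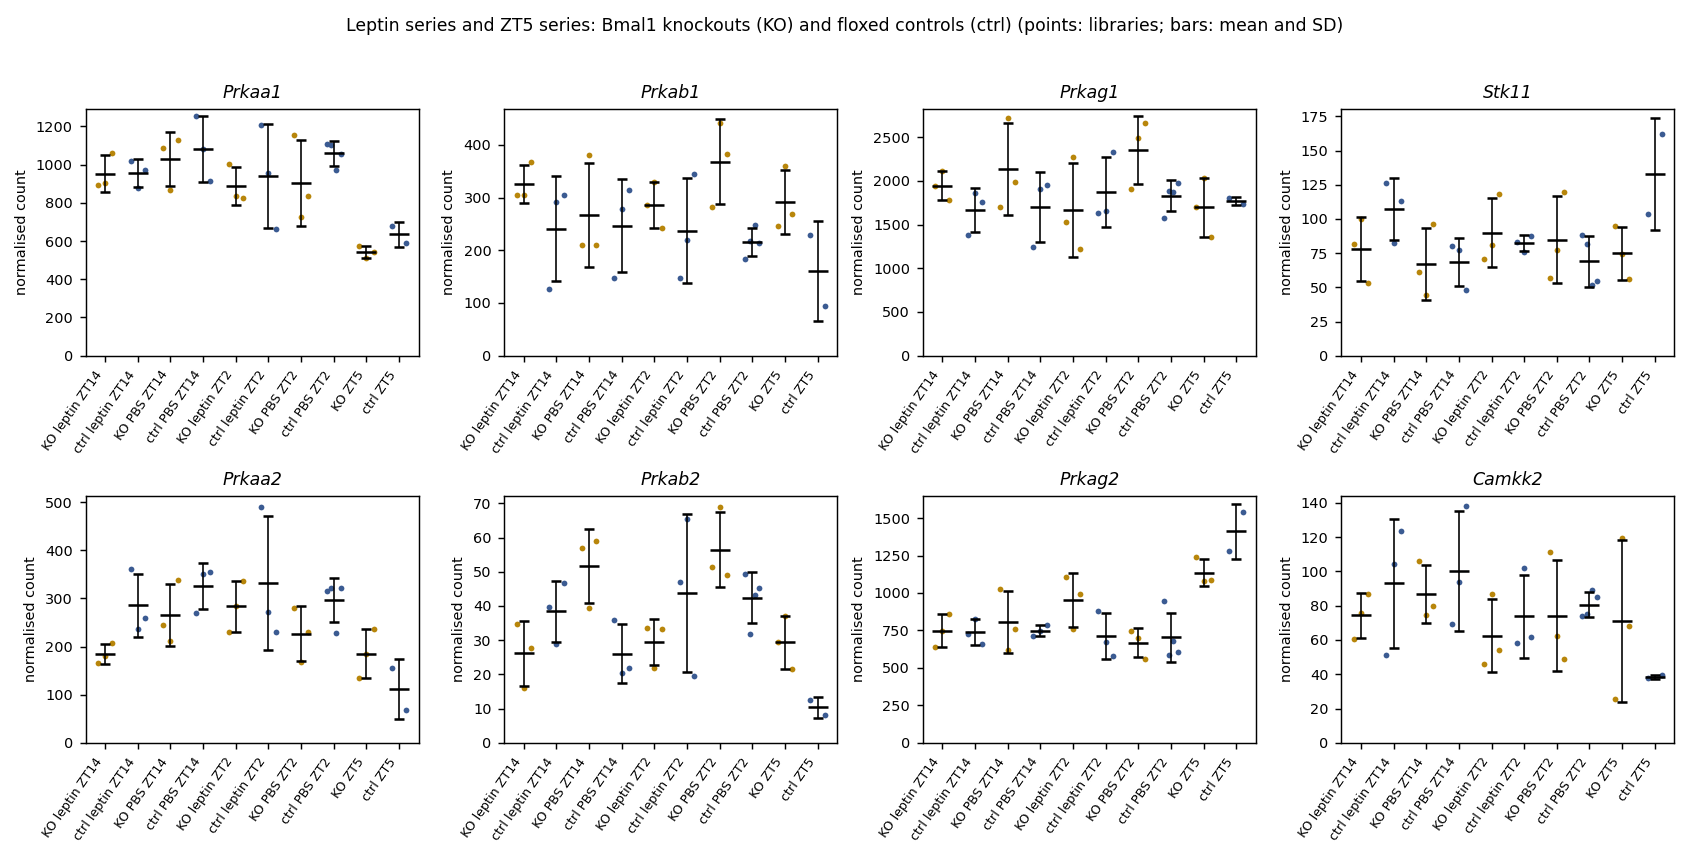
Normalised counts (y axis) of the 8 genes in the leptin series and the ZT5 series by genotype, injection and time (x axis), with points for libraries and bars for the mean and SD. Prkab2 in knockouts is lower in all 3 libraries after leptin than in all 3 after PBS, at ZT2 and at ZT14. Neither difference passed an adjusted p of 0.05 in limma, and the share of all genes that separate likewise was not counted.

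The genes around AMPK were described in 6 lists. Their differences are those of the limma fit alone, and results with the GC and length correction or other alternatives are not given for them. In sorted cells, sample set and feeding state cannot be told apart for these genes either. In sorted cells fasted at ZT2, of 17 measured regulators of LKB1 and AMPK 3 rose and 4 fell (median 0.4), of 12 AMPK-related kinases downstream of LKB1 1 rose and 1 fell (-0.32), and of 21 substrates of AMPK 2 rose and 7 fell (-0.38). Of 13 mTORC1 genes 5 rose and 4 fell (-0.51), of 13 genes of adenylate kinases and AMP handling 3 rose and 1 fell (0.08), and of 11 calmodulin and CaM kinase genes 3 rose and 4 fell (-0.33). Over all genes, 18.3% rose, 19.2% fell and the median was -0.02. At ZT14 the counts of higher and lower genes in the same order were 5 and 0, 3 and 0, 0 and 1, 2 and 1, 3 and 0, and 2 and 3, beside 9.66% and 8.81% of all genes. In RiboTag, in that order, they were 4 and 1, 3 and 1, 0 and 3, 0 and 3, 0 and 2, and 0 and 1 at ZT2, and 4 and 0, 3 and 0, 0 and 1, 1 and 3, 0 and 0, and 0 and 0 at ZT14, beside 4.08% and 3.81%, and 4.15% and 1.14%, of all genes.

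Among regulators, Ppp2ca, a catalytic subunit of phosphatase 2A, averaged 11015 ± 1779 in fasted and 1883 ± 1249 in ad libitum cells at ZT2 (2.76 ± 0.241, adjusted p = 1.52e-10, 7 of 7 above). Its differences were 3.41 at ZT14 and, in RiboTag, 3.65 at ZT2 and 3.88 at ZT14, all past the threshold. Sesn3, a sestrin gene, fell by 2.87 at ZT2 and Ppm1e, the gene of a phosphatase that acts on AMPK and CaM kinases, fell by 1.71. Cab39, whose product MO25 is part of the LKB1 complex, rose by 1.35 at ZT14, at 2271 ± 631.1 in fasted and 883.6 ± 239.0 in ad libitum cells. Of the kinases that LKB1 activates, Mark3 rose in sorted cells by 0.97 at ZT2 and 1.27 at ZT14 and in RiboTag by 2.56 and 2.8.

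Among substrates, Acaca, the gene of acetyl-CoA carboxylase, averaged 103.7 ± 39.91 in fasted and 446.7 ± 154.1 in ad libitum cells at ZT2 (-2.12 ± 0.302, adjusted p = 1.32e-06, 7 of 7 below). It also passed at ZT14 (-1.53) and in RiboTag at ZT2 (-1.99), and refed cells were above fasted ones by 1.61 at ZT2 and 1.39 at ZT14. Tsc2, which restrains mTORC1 and is in the substrate and mTORC1 lists, fell by 1.59 at ZT2 in sorted cells and also passed in RiboTag (-1.86 at ZT2, -1.77 at ZT14), while the cryptochrome gene Cry1 rose by 3.42 at ZT2 in sorted cells. In the mTORC1 group, Rragc, a Rag GTPase gene, averaged 3613 ± 490.2 in fasted and 1219 ± 450.9 in ad libitum cells at ZT2 (1.65, adjusted p = 6.35e-07), and Akt1s1, the gene of an mTORC1 inhibitor, rose by 2.64. Mtor itself passed in RiboTag at ZT2 (-2.02) and ZT14 (-1.6).

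Among genes of AMP handling, Ak5, a brain adenylate kinase, averaged 1249 ± 501.6 in fasted and 625.8 ± 100.3 in ad libitum cells at ZT2 (0.91, adjusted p = 0.000511) and rose by 1.14 at ZT14. In the calcium group, which holds the CaMKK2 targets Camk1 and Camk4, Camk1 rose by 1.95 at ZT2 (11780 ± 4014 in fasted against 3041 ± 1033 in ad libitum cells), while Camk2a (-2.96 at ZT2, -3.02 at ZT14) and Camk2g (-1.33 and -1.03) fell. After refeeding at ZT2, 4 of the 17 regulators fell and 1 rose relative to fasted cells, 4 of the 21 substrates rose and 2 fell, and 4 of the 11 calcium genes rose and 0 fell, beside 10.8% of all genes that rose and 11.1% that fell. The remaining lists held calls there too, of which up to 3 with the smallest p are given, without counts. AMPK-related kinases had Mark3 (-1.13), Sik3 (-0.92) and Mark2 (-1.14). Genes of AMP handling were Adss (-0.73), Ak5 (-0.68) and Ak1 (-0.51). The mTORC1 list had Rragc (-2.5), Mtor (1.22) and Akt1s1 (-1.49). In the leptin comparisons, the only call in these lists was Sesn1, which fell by 1.31 after leptin in knockouts at ZT2 (957.0 ± 103.2 against 2460 ± 786.2 after PBS, adjusted p = 0.0434).

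Across the 20 group means, each centred within its experiment, the genes most like each member among 12683 were found by Pearson's r, as a description, since group means share libraries' depth and feeding profile. They were Uhrf1bp1 and Mpdz for Prkaa1 (0.93 each), Mef2a and Pik3cb for Prkaa2 (0.83 and 0.82), Mapkap1 and Slc25a46 for Prkab1 (0.86 and 0.85) and Dhdh and Mmel1 for Prkab2 (0.88 each). For Prkag1 they were Pld3 and Ddost (0.95 and 0.93), for Prkag2 Fbxw4 and Pon2 (0.83 and 0.81), for Stk11 Capns1 and Aebp2 (0.89 and 0.86) and for Camkk2 Rrp9 and Ppp1r3c (0.88 and 0.87). Between members, r was highest for Prkab1 with Prkag1 (0.55) and lowest for Prkaa2 with Prkag1 (-0.54).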

How the data were processed

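The deposited table holds normalised counts (a signal per gene: read counts divided by a size factor, by the authors, as read from the values), 1 column per library. Per the submitters' processing notes the tools named were STAR 2.5.1, featureCounts of Subread, DESeq, DESeq2 and R 3.5.1, with the mm10 build; their roles and a strand setting are not given in the sources used here. Per the labels' protocols, sorted cells or RiboTag immunoprecipitates were amplified with a SMART-seq kit and libraries made with Nextera XT, so that PCR copies cannot be told from separate molecules.

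Whole reads could be recovered in 79 of 80 libraries, with values within 0.1 of a whole read. In NPY-GFP ad libitum ZT2 replicate 4 only 20.56% were, so the edgeR alternative runs without that library. The sorted, RiboTag, leptin and ZT5 libraries had separate fits in limma 3.58.1 (R 4.3.3, trend) on log2(value + 1), a scale that understates the change of low genes, for genes that reached 10 in a number of libraries equal to the smallest group's size (14931, 15444, 13942 and 12940 genes in that order, each with all 8 AMPK genes). Benjamini-Hochberg adjustment ran over all genes tested, with a threshold of 0.05, in 27 comparisons; the p-values of the 8 genes were not adjusted further over the comparisons. Subunit ratios, which depend on the size factor only through the 1 added to each value, were compared with exact permutation tests. These tests ran over every split of the libraries compared, in Python 3.11.15 with numpy 2.4.6. Alternatives were TMM scaling, edgeR 4.0.16 on recovered reads, a pseudocount of 10, no filter, only the groups compared, a correction for GC content and exon length, the replicate number as a block, and leaving out each library.

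The limma fit was checked on simulated data for 6 of the 27 comparisons, and the permutation test was checked likewise, while edgeR was not; intervals are given at 95%. No pair of replicates agreed within sampling noise (smallest chi-square per gene 15.1). Of the table's symbols, 20929 matched GENCODE M21 directly and 1902 through an older symbol, while 506 did not match.

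The 8 genes were named by rule, and of 6 pathway lists up to 3 called genes with the smallest p in a comparison may be named, while Hsd11b2 was chosen after its values were seen, as was the ZT5 fit without the 2 libraries it sets apart. For each of the 8 genes, the 2 with the highest Pearson correlation over group means are its most alike genes, with predicted or unnamed symbols left out. The genes, lists and tests were chosen with earlier results of these data known.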

Additional observations from a re-analysis of the deposited data

Results flagged for a closer look

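Dixon's criterion at the 95% level was applied to 99 sets of values, each of 1 gene or subunit ratio in 1 group of 4 to 8 libraries. In 6 of the 99 sets, 1 library lay farther from the others than it allows, where chance flags about 1 in 20 sets. The sets share libraries, and the ratios are built from the same genes, so they are not independent. Prkaa2 was at 228.3 in leptin-series control PBS ZT2 replicate 3, against 315.9 to 322.2 in the other libraries of its group. Prkab1 was at 878.0 in RiboTag fasted ZT14 replicate 3, against 204.6 to 299.2, and at 467.3 in sorted fasted ZT14 replicate 2, against 248.0 to 320.4. Prkag2 was at 583.0 in sorted fasted ZT14 replicate 7, against 802.7 to 1055. The log2 ratio of Prkaa2 to Prkaa1 was -3.11 in RiboTag fasted ZT14 replicate 3, against -2.01 to -1.62, and -0.71 in sorted ad libitum ZT2 replicate 3, against -1.77 to -1.54. The same RiboTag library thus stood apart in Prkab1 and in this ratio.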

How the results depend on the processing

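Of the 8 genes, the number called in sorted cells fasted at ZT2 was 1 with the GC and length correction (3 without it; 3 to 4 without single libraries), and at ZT14 it was 0 with that correction (1 without it; 0 to 2 without single libraries). For refed over fasted cells at ZT2 it was 3 with the GC and length correction (Prkag2, Prkag1 and Stk11; Prkaa1 lost), 1 with only the groups compared and 1 to 2 without single libraries, in place of 2. For refed over ad libitum cells at ZT2 it was 1 with the GC and length correction, 1 in edgeR, 1 with only the groups compared and 1 to 2 without single libraries, in place of 2. In RiboTag it was 0 to 1 without single libraries at ZT2 and at ZT14, in place of 0. Among the subunit ratios, 2 passed with the GC and length correction and 0 to 2 without single libraries, in place of 0. The cause of these changes was not tested. Over all single-gene results, a call was kept in 133 settings and lost in 19, results not called stayed so in 3471 and passed in 9, and no direction reversed. Prkag1 passed in sorted cells fasted at ZT14 without fasted replicate 5 (0.47, adjusted p = 0.0401).

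The median correlation of deviations between same-numbered libraries of different groups was 0.00123 in sorted cells, -0.032 in RiboTag and 0.0321 in the leptin series. Between libraries with different numbers it was -0.00271, -0.00751 and -0.0188 in the same order. These medians do not show whether single pairs of libraries share a batch. With the replicate number as a block, 1 of the 8 genes passed in RiboTag at ZT2, in place of 0: Prkaa1 (-2.02, adjusted p = 0.0166). The block changed no other call of the 8 genes.

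Counts over all genes moved by over 1.5 times for fasting at ZT14 (2758; 1257 to 3498 without single libraries), refed over fasted at ZT14 (1741; 1138 to 2447), refed over ad libitum at ZT2 (2648; 1438 to 2833) and RiboTag fasting at ZT2 (1219; 453 to 2252, and 370 with only the groups compared). They also moved for refed over ad libitum at ZT14 (56; 21 to 45, and 179 with only the groups compared), leptin in knockouts at ZT2 (59; 6 to 106, and 0 with only the groups compared) and the knockout at ZT5 (0; 0 to 400). For ZT14 over ZT2 in fasted sorted cells the count was 42, and 26 in edgeR, 8 with only the groups compared and 9 with the block; counts of 12 or fewer moved in several other comparisons. Groups held 2 to 8 libraries, and the intervals of Prkab2, the lowest of the 8 genes per length, reached past 1 on the log2 scale in most comparisons.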
